A study of Tachysurus ussuriensis with 12 samples.

Results

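Among 84875 assembled transcripts of the Ussuri catfish (Tachysurus ussuriensis), 78 stood higher in gill at 24 h of acute salinity stress than at 0 h while their mean level in kidney changed little. They were chosen by 4 conditions on the deposited FPKM values, which are fragment counts scaled for transcript length and for the size of the library. The mean over the 12 libraries was 2 FPKM or more. The lowest gill library of 24 h lay above the highest gill library of 0 h. The mean of log2(FPKM + 1) was higher by 1.5 or more in gill at 24 h. The corresponding difference in kidney was smaller than 0.5 in either direction. Because these values chose the 78 transcripts, the gill and kidney differences over time are given as a description and nothing is inferred from them.

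The 12 libraries were made from total RNA and form 4 groups of 3, namely gill at 24 h, gill at 0 h, kidney at 24 h and kidney at 0 h. The labels give the tissue and the time. They do not state the salinity, the age or sex of the fish, whether a library came from 1 fish or several, or a group held for 24 h without salinity stress, so time and salinity cannot be told apart, and p-values measure the spread between these libraries, which may be technical. Kidney 0 h replicate 2 stood apart from the other kidney libraries, with correlations of 0.816 to 0.838 to them, and its median FPKM over all transcripts was 1.26, against 1.85 to 2.22 in the other 11 libraries. Without that library the same conditions chose 97 transcripts, 67 of the 78 among them.

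The gill of a freshwater fish takes up salt from the water through ionocytes, cells rich in mitochondria that carry ion pumps such as the sodium-potassium ATPase, while the kidney excretes the water that enters by osmosis as dilute urine. When the water becomes saltier these fluxes change in both organs, and gill is the surface in direct contact with the water. Responses known in fish gill under such conditions include changes in transporters, tight junctions, cell volume control and stress proteins. The transcripts here have assembly IDs but no gene names in the file, so none of the 78 can be placed in these roles, and no marker of a gill or kidney cell type could be looked up to check the tissue labels. For the same reason 2 IDs are printed and the other transcripts are described by their rank. In tissue RNA, a higher level per cell and a larger share of the cells that carry a transcript cannot be told apart.

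The conditions narrowed the table in steps. The mean level was reached by 42379 transcripts, and in 6265 of these, or 14.8%, all 3 gill libraries of 24 h lay above all 3 of 0 h. The size of the gill difference left 213. Of these 213, 78 (36.6%) had a kidney difference within the limit, 123 stood at least 0.5 higher in kidney at 24 h as well, and 12 stood at least 0.5 lower. Among all 42379 transcripts of that mean level, 74.0% had a kidney difference within the limit. In 53 of the 213 the kidney difference was 1.5 or more as well. All kidney libraries of 24 h lay above all of 0 h in 1 of the 78 transcripts and below them in 3, beside 12% and 3.75% of the transcripts tested below; the choice limits both counts. In the opposite direction, 202 transcripts met the mirrored conditions, lower in gill at 24 h with a small kidney difference.

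**Figure D1:**
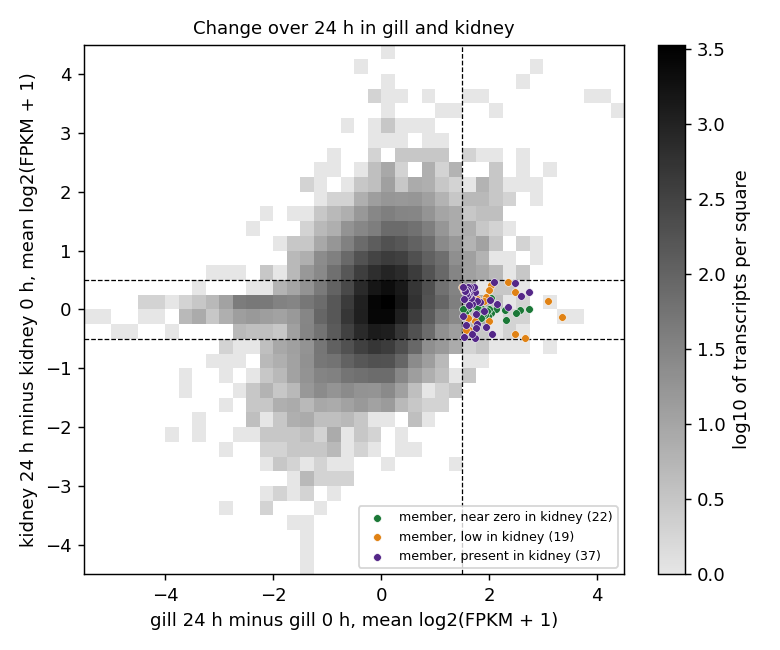
Difference between 24 h and 0 h in gill (horizontal axis) and in kidney (vertical axis), both as means of log2(FPKM + 1), for 42379 transcripts of a mean of 2 FPKM or more. Grey squares count transcripts on a log10 scale, coloured points are the 78 chosen transcripts by their kidney level, and dashed lines mark the limits of 1.5 and 0.5; the 78 points fill the band right of 1.5 and between the horizontal lines by construction.

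The 78 transcripts differed in level over more than 2 orders of magnitude in gill. Their mean FPKM in gill at 24 h ran from 2.87 to 623 with a median of 10.5, and at 0 h from 0.160 to 118 with a median of 1.80. At 24 h 15 of them averaged 30 FPKM or more, 3 of these above 100, while 37 averaged under 10. The gill difference ranged from 1.503 to 3.35 on the log2 scale with a median of 1.78, and the ratio of mean FPKM (24 h over 0 h) from 2.46 to 20.2 with a median of 4.74. In 23 transcripts the difference was 2 or more, and in 55 it lay between 1.5 and 2.

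Together the 78 transcripts held 2488 ± 72.8 FPKM in gill at 24 h and 517 ± 37.0 FPKM in gill at 0 h (SD, n = 3 each). As a share of all FPKM in a library this was 0.366% ± 0.0152 and 0.0736% ± 0.00409 (SD, n = 3 each). In kidney the sum was 238 ± 12.9 FPKM at 24 h and 233 ± 25.5 FPKM at 0 h (SD, n = 3 each). Without the 2 named transcripts below, the sums in gill were 1525 ± 169 and 365 ± 35.1 FPKM (SD, n = 3 each).

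**Figure D2:**
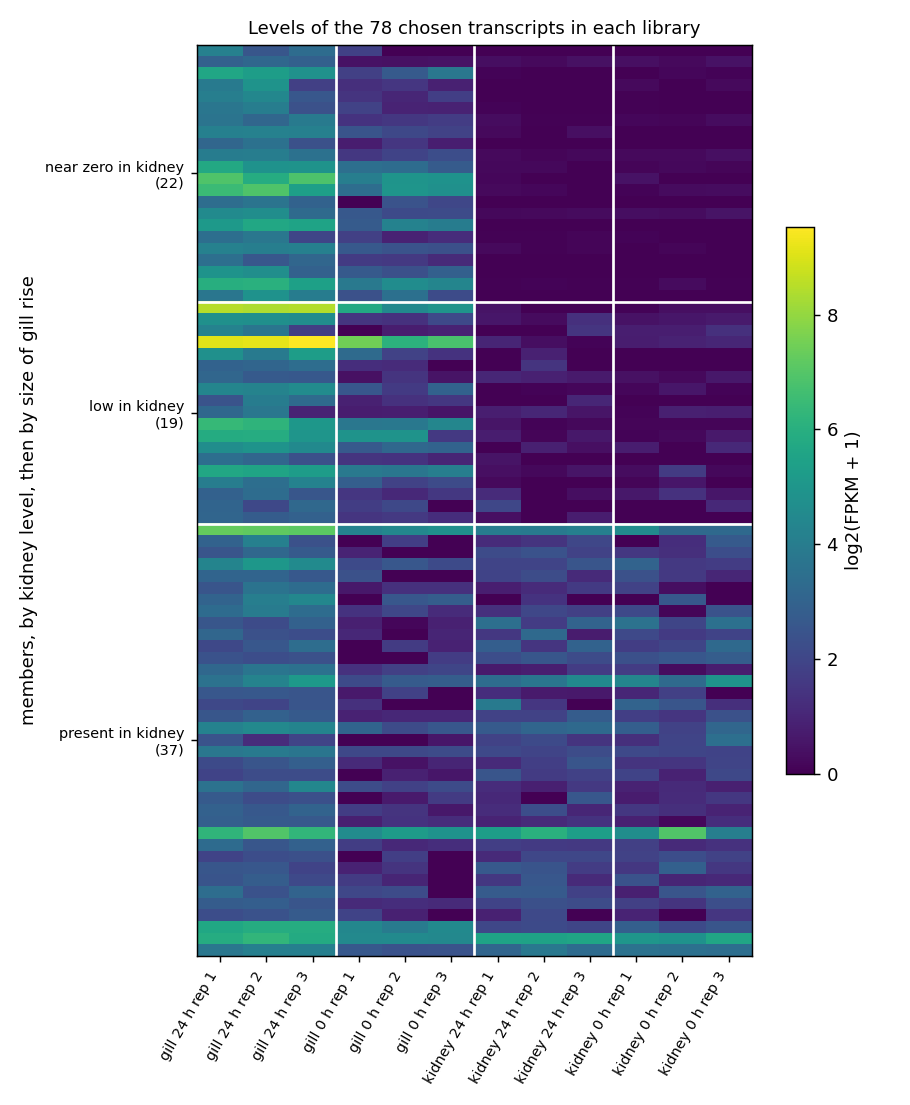
Level of each of the 78 transcripts (rows) in each of the 12 libraries (columns), as log2(FPKM + 1) on the colour scale. Rows are grouped by kidney level (22 near zero, 19 low and 37 present in kidney) and sorted by the size of the gill difference within each group; the upper 2 groups are dark in all kidney columns, and the lowest group has similar colours in the kidney and the gill 24 h columns for many rows.

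The transcript with the largest gill difference was TRINITY_DN21990_c0_g1_i4_2. It had 358, 324 and 340 FPKM in the gill libraries of 24 h, against 52.4, 22.2 and 29.4 FPKM in those of 0 h. In kidney it had 0.429, 0 and 0 FPKM at 24 h, against 0.0777, 0.314 and 0.302 FPKM at 0 h. The 3 gill libraries of 24 h were close to each other, and each lay more than 6-fold above the highest gill library of 0 h. The mean was 341 ± 17.0 FPKM in gill at 24 h and 34.7 ± 15.8 FPKM in gill at 0 h (SD, n = 3 each), a difference of 3.35 on the log2 scale.

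TRINITY_DN26606_c0_g1_i4_2 had the highest level of the 78 in gill at 24 h. Its values there were 554, 577 and 738 FPKM, against 176, 68.1 and 109 FPKM at 0 h. Kidney libraries of 24 h had 0.957, 0.292 and 0.0566 FPKM, and those of 0 h had 0.684, 0.879 and 1.01 FPKM. It was already among the higher transcripts of the set in gill at 0 h, where its libraries spread more widely than at 24 h in proportion to their mean. The mean was 623 ± 100 FPKM in gill at 24 h and 118 ± 54.4 FPKM in gill at 0 h (SD, n = 3 each), a difference of 2.49. In kidney its difference was -0.42, close to the limit, from values of about 1 FPKM or less.

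**Figure D3:**
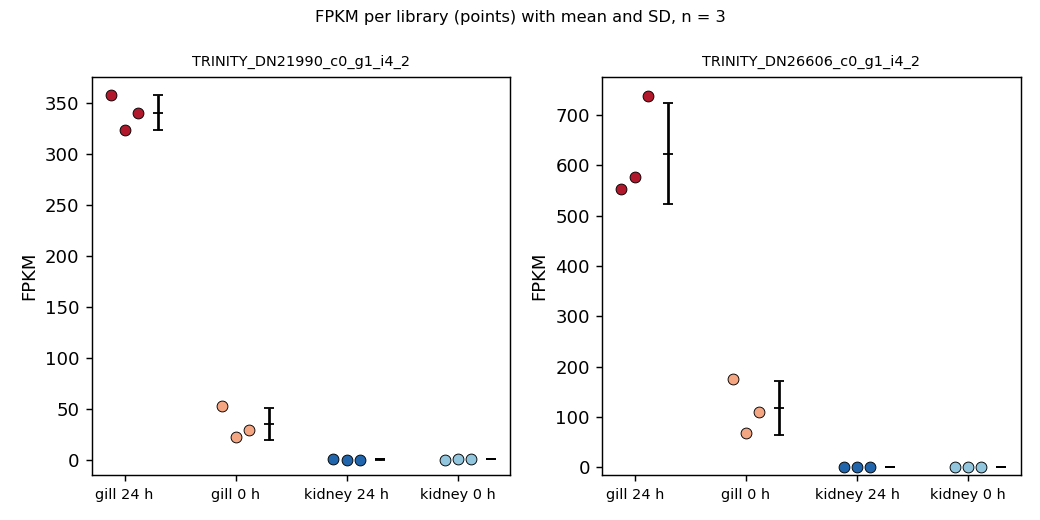
FPKM of TRINITY_DN21990_c0_g1_i4_2 (left) and TRINITY_DN26606_c0_g1_i4_2 (right) in each library (points), with the mean and SD of the 3 libraries of a group beside them. The vertical axes are linear and differ between the panels; in both, the gill libraries of 24 h (324 to 358 FPKM and 554 to 738 FPKM) lie above those of 0 h, and all kidney points lie near the bottom.

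Over the 12 libraries the 5 transcripts whose log2(FPKM + 1) most resembled TRINITY_DN21990_c0_g1_i4_2 correlated with it at Pearson r = 0.991 to 0.998, as a description over libraries that chose the set. They were all near zero or low in kidney, TRINITY_DN26606_c0_g1_i4_2 was among them at r = 0.993, and their gill differences ranged from 1.60 to 2.49. Over the other 77 transcripts the median r was 0.848 and the lowest -0.319, so the profiles within the set were not alike.

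The kidney level split the set into 3 kinds. On the log2(FPKM + 1) scale a transcript that stays under 0.414 FPKM in every kidney library cannot differ by 0.5, whatever its course, and 22 of the 78 transcripts (28.2%) were under this value in all 6 kidney libraries. For these 22 the small kidney difference follows from the scale. Of the 42379 transcripts of the required mean level, 1151 (2.72%) were under it, and none of the other 135 transcripts with the gill difference could be. A further 19 transcripts averaged under 1 FPKM in kidney with at least 1 library above 0.414 FPKM. The remaining 37 averaged 1 FPKM or more in kidney and are called present there. Listed at 0 in all 6 kidney libraries were 6 transcripts.

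The 22 transcripts near zero in kidney had a median of 15.9 FPKM in gill at 24 h and 3.12 FPKM at 0 h. The one of the highest level had 117, 58.3 and 116 FPKM in gill at 24 h, against 16.0, 29.9 and 28.2 FPKM at 0 h, and at most 0.380 FPKM in kidney. The next had 90.1, 117 and 40.4 FPKM in gill at 24 h, against 9.53, 30.1 and 26.3 FPKM at 0 h. In both, libraries of the same time were spread widely, and the 2 times did not overlap. The transcript of this kind with the tightest libraries at 0 h had 6.84, 7.99 and 6.67 FPKM at 24 h, against 0.375, 0.359 and 0.375 FPKM at 0 h, and 0.180 to 0.368 FPKM in kidney, so that gill at 0 h and kidney were alike and gill at 24 h stood apart.

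Of the 19 low in kidney, both named transcripts are examples, and so is the one with the second largest gill difference of the set. It had 26.6, 26.1 and 24.1 FPKM in gill at 24 h, against 1.77, 1.54 and 3.34 FPKM at 0 h, a difference of 3.09. Its kidney libraries had 0.473, 0.211 and 1.49 FPKM at 24 h, against 0.373, 0.493 and 0.606 FPKM at 0 h. The kidney difference of these 19 depended on the offset added before the logarithm: with 0.1 in place of 1 in all conditions only 3 of them met all conditions, against 18 of the 22 near zero and 26 of the 37 present in kidney.

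The 37 transcripts present in kidney averaged a level at which a change could show on this scale, though at the low end the offset still shrinks it. One of them was at 0 in 4 kidney libraries. Its kidney mean of 1.13 FPKM rested mainly on 5.20 FPKM in kidney 0 h replicate 2, the library that stood apart. The median of the 37 in gill was 6.43 FPKM at 24 h and 1.24 FPKM at 0 h. The required mean over 12 libraries lets a transcript with kidney signal pass at a lower gill level, and the lowest gill mean at 24 h was 2.87 FPKM here, against 7.17 FPKM among those near zero and 6.14 FPKM among those low in kidney, so the kinds are not compared in gill level. In count, 24 of the 37 transcripts that averaged under 10 FPKM in gill at 24 h belonged here. In kidney their median was 3.16 FPKM at 24 h and 2.72 FPKM at 0 h. The kidney difference was above 0 in 26 and below 0 in 11, and lay within 0.25 in 15. Its median was 0.18, against 0.08 over all transcripts of the required mean level. Its median SE in the fit was 0.44, and the median within-group SD in kidney was 0.62 on the log2 scale, against 0.39 over all transcripts of the required mean level. The limit of 0.5 was about as wide as the error of a single kidney difference.

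The transcript with the third largest gill difference, and the third highest level, was present in kidney. It had 153, 146 and 138 FPKM in gill at 24 h, against 17.6, 20.6 and 26.0 FPKM at 0 h, and in kidney 14.9, 14.0 and 16.2 FPKM at 24 h, against 23.1, 8.47 and 8.64 FPKM at 0 h. Gill at 0 h and kidney were of the same order, and gill at 24 h was apart from both. A transcript of lower level showed this with little spread: 12.6, 13.7 and 11.9 FPKM in gill at 24 h, against 3.18, 3.21 and 3.57 FPKM at 0 h, and in kidney 3.30, 2.89 and 3.61 FPKM at 24 h, against 3.30, 2.96 and 2.73 FPKM at 0 h. Its gill difference was 1.67 and its kidney difference 0.09.

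The transcript of the fifth highest level, also of this kind, is an example in which the kidney difference depended on the kidney library that stood apart. It had 74.9, 122 and 75.6 FPKM in gill at 24 h, against 23.4, 36.8 and 27.8 FPKM at 0 h. In kidney it had 38.3, 64.9 and 39.2 FPKM at 24 h, against 24.2, 122 and 15.7 FPKM at 0 h, where 122 FPKM is the value of replicate 2. Its kidney difference was 0.33 with that library and 1.19 without it. Without that library 28 of the 37 transcripts present in kidney met all conditions, as did 17 of the 19 low. All 22 near zero met them as well, which the scale and their near-zero value in that library fix in advance.

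None of the conditions compares gill with kidney, but they bear on that comparison. A transcript near zero or low in kidney reaches the required mean only through gill, and such transcripts meet the kidney limit readily on this scale. The gill level relative to kidney is therefore given as a description. It was fitted with limma on log2(FPKM + 1) over all 75716 transcripts with 1 FPKM or more in at least 3 libraries, with two-sided p-values adjusted by Benjamini-Hochberg and called under 0.05, and all 78 were among those tested. Averaged over both times, a contrast that is orthogonal to the change over time in each tissue, 52 of the 78 were higher in gill than in kidney and 3 were lower; 23 were not called. Over all tested transcripts 21.8% were called higher in gill and 19.8% lower. The median difference of the 78 was 1.68 on the log2 scale (range -1.29 to 7.35), against -0.05 over all tested transcripts. The gill level at 24 h, which is high in this set by the choice, enters this average. All 22 near zero and 18 of the 19 low in kidney were among the 52, as the required mean favours. Of the 37 present in kidney, 12 were called higher in gill, 3 lower and 22 neither.

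The 2 named transcripts were far higher in gill. TRINITY_DN21990_c0_g1_i4_2 was higher there by 6.51 (SE 0.19) on the log2 scale averaged over both times, and by 4.77 at 0 h. For TRINITY_DN26606_c0_g1_i4_2 the differences were 7.35 (SE 0.22) over both times and 5.90 at 0 h. The first is named for its gill difference over time and the second for its gill level at 24 h, so these are descriptions. In each, all 6 gill libraries lay above all 6 kidney libraries. That separation held for 33 of the 78 transcripts, beside 13.7% of those tested. The reverse, with all gill libraries below all kidney libraries, held for 0, beside 10.4%. The conditions favour high gill values at 24 h, and transcripts near zero or low in kidney reach the required mean only through gill. Both counts are therefore a description.

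At 24 h 56 of the 78 were called higher in gill than in kidney and 0 lower, beside 15.6% and 15.1% of all tested transcripts. The counts at an unadjusted limma p under 0.05 were 60 and 0, with no share of all tested computed at that threshold. At 0 h 34 were called higher in gill and 10 lower, beside 17.3% and 12%. These counts share the gill libraries with the conditions, which favour high gill values at 24 h and low ones at 0 h, and are given as a description. All 34 that were called higher in gill at 0 h were also called so at 24 h, and 21 more were called at 24 h but not at 0 h. Of the 10 called lower in gill at 0 h, 9 were not called at 24 h and 1 was called higher in gill; the remaining 13 were called at neither time.

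Those 10 transcripts were all present in kidney, and their fitted difference between gill and kidney at 24 h lay between -0.17 and 0.66. One had 4.25, 3.80 and 4.13 FPKM in gill at 24 h, against 0, 0 and 2.27 FPKM at 0 h, and in kidney 3.77, 4.79 and 3.58 FPKM at 24 h, against 4.06, 5.09 and 5.99 FPKM at 0 h. It was lower in gill than in kidney by 2.01 at 0 h on the log2 scale, and the difference at 24 h was 0.01. The one that was called higher in gill at 24 h had 12.6, 16.4 and 16.1 FPKM there, against 7.58, 12.9 and 8.94 FPKM in kidney at 24 h. At 0 h it had 5.20, 4.25 and 4.40 FPKM in gill, against 11.0, 10.4 and 9.82 FPKM in kidney. Its gill libraries were below those of kidney at 0 h; the difference was -1.02 at 0 h and 0.59 at 24 h. At a higher level, another had 58.4, 77.2 and 55.4 FPKM in gill at 24 h, against 21.2, 22.4 and 20.9 FPKM at 0 h, while kidney had 45.4, 44.5 and 48.0 FPKM at 24 h, against 31.5, 27.9 and 48.8 FPKM at 0 h. All 3 gill libraries of 24 h lay above all 3 kidney libraries of 24 h in 61 of the 78 and below them in 0, beside 22.6% and 25.8% of all tested. At 0 h the counts were 34 and 15, beside 22% and 17.1%. The counts at both times share the gill libraries with the conditions and are a description. In 3 of the 78 transcripts all 6 kidney libraries lay between the gill libraries of the 2 times, above those of 0 h and below those of 24 h. This was seen in 0.0185% of all tested, a share that cannot be set against the 3, because the choice requires the separated gill libraries that the pattern needs.

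**Figure D4:**
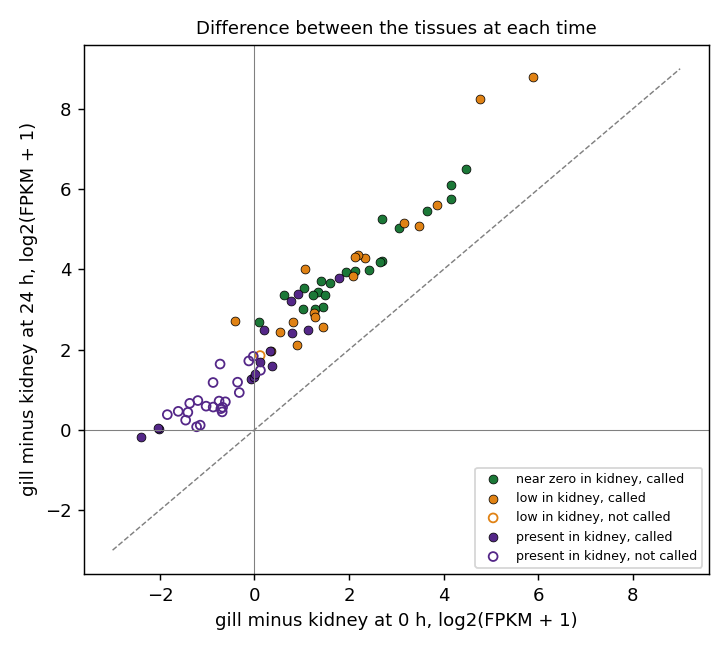
Fitted difference between gill and kidney at 0 h (horizontal axis) and at 24 h (vertical axis) for the 78 transcripts, on the log2(FPKM + 1) scale, coloured by kidney level. Filled points were called in the average of both times by limma (55) and open points were not (23); all points lie above the dashed line of equal differences, as the choice of the transcripts makes them, and the points left of 0 belong, with 1 exception, to transcripts present in kidney.

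The gill libraries of 24 h did not vary alike over the set. Replicate 3 was the lowest of the 3 in 34 of the 78 transcripts (43.6%), against 39.9% of all transcripts of the required mean level. In 7 of the 78 transcripts the highest library of 24 h was 4-fold or more above the lowest. Such a spread was seen in 3839 of the 42379 transcripts of the required mean level. Replicate 3 was the lowest in all 7, against 35.8% of the 3839. One of the 7 had 13.8, 29.1 and 2.50 FPKM at 24 h, against 1.43, 1.86 and 0.824 FPKM at 0 h. Another had 8.09, 12.7 and 0.933 FPKM at 24 h, against 0.708, 0.722 and 0.444 FPKM at 0 h. In these 2 transcripts, replicates 1 and 2 stood far above 0 h, and replicate 3 stood less than 1.5-fold above the highest value of 0 h. Among the 7 replicate 3 stood up to 2.67-fold above it. Both other libraries were more than 2-fold above replicate 3 in 10 transcripts (12.8%), against 4.70% of all, whereas replicate 1 was that low in 1, against 4.18%, and replicate 2 in 2, against 2.92%. Over the whole set the lowest library of 24 h was 2-fold or more above the highest of 0 h in 46, and less than 1.25-fold above it in 8. The gill libraries of 24 h took part in the choice, so all these counts are a description.

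Because all 12 libraries chose the set, the choice was repeated without the 4 libraries of 1 replicate number, and the gill libraries left out were read. This chose 109 transcripts without replicate 1, 155 without replicate 2 and 144 without replicate 3, of which 44, 53 and 46 belonged to the 78. In the choosing libraries their median gill difference was 1.73, 1.74 and 1.84. In the left-out libraries, 24 h minus 0 h, it was 1.13, 0.99 and 0.83, while the median over all transcripts of the mean level was 0.02, 0.02 and 0.03. The left-out gill library of 24 h lay above that of 0 h for 76.1%, 79.4% and 73.6% of the chosen transcripts, against 52.2%, 52.6% and 52.4% of all. A difference of 1.5 or more was kept by 33.9%, 35.5% and 26.4%, against 1.88%, 1.95% and 2.10% of all.

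Kidney libraries that had no part in the choice were often outside the limit. The left-out kidney difference lay within 0.5 for 51.4%, 47.7% and 63.2% of the chosen transcripts, against 67.4%, 43.3% and 65.4% of all, and its median was 0.00, 0.16 and 0.00. It was above 0 in 54, 86 and 69 of the chosen transcripts, below 0 in 46, 47 and 57, and exactly 0 in the rest. For transcripts near zero in both left-out kidney libraries the scale keeps the difference within 0.5. A left-out kidney difference of 1.5 or more was seen in 8.26%, 13.5% and 5.56% of the chosen transcripts, against 1.84%, 6.67% and 3.04% of all. The left-out kidney library of 0 h for replicate 2 is the one that stood apart. A set chosen on 2 libraries per group is a different set from the 78, and these values describe how far the conditions carry over to another library.

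**Figure D5:**
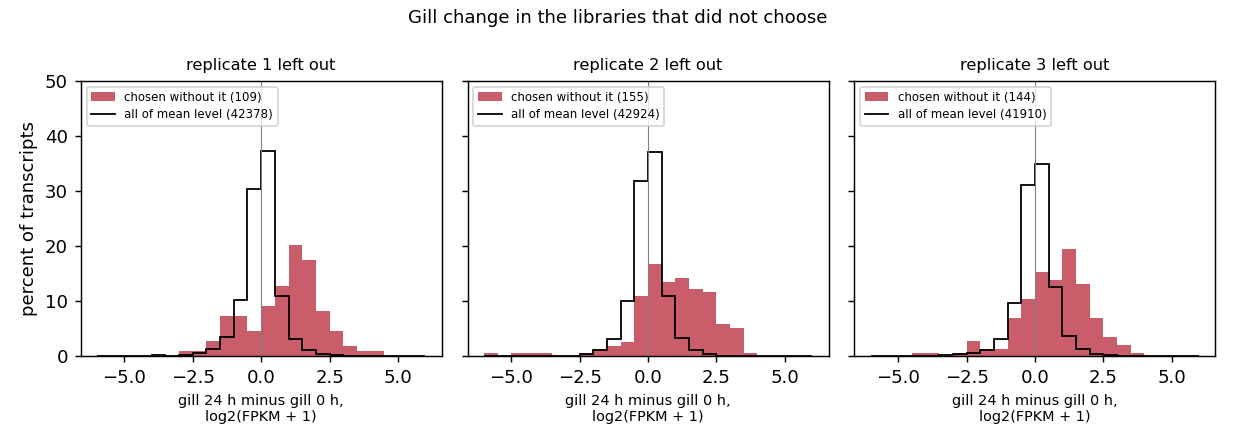
Gill difference (24 h minus 0 h, log2(FPKM + 1)) in the 2 gill libraries of the replicate number that was left out, as the percent of transcripts per step of 0.5, with differences past 6 in either direction in the end bars. Filled bars are the transcripts chosen without that replicate (109, 155 and 144) and the black outline is all transcripts of the required mean level; the bars are shifted to the right of the outline in all 3 panels, with part of them at or below 0.

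The number that ends a transcript ID behaved as part of the name: 31084 transcripts share the rest of their ID with a transcript of another end number, and no 2 transcripts with the same end number share a Trinity gene, the unit in which the assembler groups isoforms. No source used here says what the end number means. If it sets apart separate assemblies, the 78 include no 2 isoforms of 1 Trinity gene, as would hold for any set of these transcripts. If it is ignored, 1 pair shares a Trinity gene: it had 4.85, 3.52 and 6.86 FPKM in gill at 24 h, against 0.776, 0.118 and 0.851 FPKM at 0 h, for the one, and 4.84, 6.69 and 5.53 FPKM, against 0.863, 1.08 and 1.07 FPKM, for the other. Both were present in kidney. By end number 26 ended in 1, 19 in 2, 9 in 3 and 24 in 4, or 2.36, 1.95, 0.813 and 2.27 per 1000 transcripts of the required mean level. All 9 that ended in 3 were present in kidney, so none of those near zero or low in kidney ended in 3. No share over all transcripts that end in 3 is set beside this, so nothing is read from it. Whether 1 transcript stands under several IDs of different end numbers was not tested.

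A wider unit of the assembly is the component, a cluster of overlapping sequence that can hold several Trinity genes. Of the 78 transcripts, 55 were alone in theirs and 23 shared it with other transcripts of the same end number. Only 1 component held 2 of the 78, whose profiles correlated at r = 0.950 over the 12 libraries. One of that pair had 12.2, 15.6 and 4.15 FPKM in gill at 24 h, against 2.73, 0.912 and 0.904 FPKM at 0 h, and the other 28.8, 25.2 and 6.74 FPKM, against 5.48, 4.01 and 6.52 FPKM; both were near zero in kidney. The components held 23 further transcripts of the required mean level, in 18 of which (78.3%) the gill difference was above 0, against 53.2% of all. Their median gill difference was 0.46, with a range of -0.52 to 2.72, and in 11 (47.8%) all gill libraries of 24 h lay above those of 0 h, against 14.8% of all. The highest of them met the gill conditions but not the kidney limit, with a kidney difference of 0.66. Transcripts of 1 component share sequence and can share reads, so they do not count as independent of the 78.

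Many of the 78 had low values in some libraries. In 17 at least 1 gill library of 0 h was listed at 0, 12 of them transcripts present in kidney, and 38 of the 78 (48.7%) had an exact 0 in some library, against 11.0% of all transcripts of the required mean level. A further 19 values of the 78 were above 0 but under 0.001 FPKM; with these taken as 0, the counts were 22 and 46. None was at 0 in all 3 gill libraries of 0 h. The conditions favour low gill values at 0 h and near-zero kidney values, so these counts are a description. A 0 in kidney can go with a high gill level: TRINITY_DN21990_c0_g1_i4_2, at 341 FPKM in gill at 24 h, is among the 38 through 2 kidney libraries. The gill condition was just met at 1.503 and 1.507 and just missed at 1.496 and 1.495. The kidney limit was just met at -0.486 and -0.484 and just missed at -0.501 and 0.503. Means of 2.01 and 2.02 FPKM lay just inside and means of 1.97 and 1.93 FPKM just outside, and the lowest library of 24 h and the highest of 0 h were 3.23 and 3.15 FPKM in the pair nearest to overlap, against 1.54 and 1.56 FPKM in the nearest transcript left out. A further 15 transcripts met all conditions but the separation of the gill libraries, and 65 all but the mean level.

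The limma fit also covers the differences over time, where its counts restate the choice and nothing is read from them. It called 43 of the 78 as higher in gill at 24 h than at 0 h, beside 0.415% of all tested, and so 35 that met the conditions did not pass a fit that weighs the spread of the libraries. In kidney it called 0 in either direction, beside 0.623% higher and 0.201% lower. At an unadjusted limma p under 0.05 there were 0 higher and 1 lower in kidney, with no share of all tested computed at that threshold. The separation of the gill libraries that the conditions require was seen in 11.9% of all tested. A gill change above the kidney change was called in 5, beside 0.0158%.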

How the data were processed

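The authors deposited FPKM values, 1 column per library, for 84875 transcripts, per the file headers, with IDs of the form that Trinity writes. Total RNA came from a TRIzol extraction, per the labels' protocols, and Trimmomatic is named in the submitters' processing notes. No aligner, counting program or assembly setting is named in the sources used here. FPKM are not counts, so no count model was fitted, depth is unknown and counting intervals cannot be given. Among the 78 transcripts the lowest value above 0 was 4.71e-76 FPKM, so low values are estimates.

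Transcripts were chosen in Python 3.11.15 and tested with limma 3.58.1 in R 4.3.3 on log2(FPKM + 1), which understates changes of low transcripts. The fit had 4 group means, 12 libraries, 8 residual degrees of freedom and a variance prior that follows the mean level. The rule of choice was tested on made rows with known answers. The limma fit was tested on simulated data for the contrast averaged over both times, and the other contrasts were not simulated. The transcripts and comparisons were chosen with earlier results of these data known. At most 2 IDs are printed, by a rule (largest gill difference, highest gill level at 24 h); transcripts singled out beyond ranks were chosen after their values were seen. The planned comparison with isoforms of the same Trinity gene could not be made, because none share an end number, and components were used in its place.

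The replicate numbers in the titles were checked for pairing by correlating how far libraries with the same number deviate from their groups. Between gill and kidney at 24 h the correlations were 0.137, 0.111 and 0.109. At 0 h they were -0.00854 to 0.0915, and between the times of 1 tissue -0.0493 to 0.0797. No such correlation is set beside them for libraries of different numbers, so these values cannot decide whether the numbers pair libraries. The main fit used no pairing, and the replicate block is given as an alternative. The library names number replicate 3 otherwise than the titles in 3 of the 4 groups, so that at 24 h its number differs between the tissues. Alternatives were other offsets, scalings, filters, limits, a replicate block and each library left out.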

Additional observations from a re-analysis of the deposited data

Results flagged for a closer look

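The gill change exceeded the kidney change in 5 of the 78 transcripts by limma at an adjusted p under 0.05, beside 0.0158% of all tested. The conditions that chose the 78 require a difference of this direction in each of them, so the count restates the choice and no p is given. The 5 include TRINITY_DN21990_c0_g1_i4_2, whose gill change was larger than its kidney change by 3.47 (SE 0.38) on the log2 scale. In the other 4 it was larger by 2.94 (SE 0.41), 2.58 (SE 0.27), 2.00 (SE 0.29) and 1.58 (SE 0.23). With the replicate number as a block 1 was called, beside 0.00264% of all tested. Without gill 0 h replicate 2 there were 12, beside 0.0634%. Leaving out any other library gave 0 to 5, beside 0% to 0.0396%.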

How the results depend on the processing

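The number of transcripts chosen, 78, was 139 with a pseudocount of 0.1 (47 of the 78 among them), 315 and 23 with gill limits of 1 and 2, 46 and 135 with kidney limits of 0.25 and 1, and 129 and 31 with mean levels of 1 and 5 FPKM. It was 76, 96 and 84 with median-ratio scaling, quantile normalization and equal totals (61, 71 and 75 shared), and 77 to 122 without single libraries (53 to 69 shared), the highest without gill 0 h replicate 2. A mean of 5 FPKM left 8, 10, 3 and 10 for end numbers 1 to 4. Counts between the tissues stayed within 1.5 times under the offset, filter, scalings, block and 2-group fits. Without single libraries, higher in gill were 49 to 52 over both times, 52 to 58 at 24 h and 28 to 35 at 0 h. The shares of all tested ran from 20.4% to 22.4%, 13.1% to 17.7% and 14.8% to 17%. Lower in gill were 2 to 4, 0 and 5 to 11, beside 17.6% to 24.2%, 11.7% to 19.2% and 9.25% to 15.9%. The count lower at 0 h was 6 without gill 0 h replicates 1 or 3 and without kidney 0 h replicate 1. It was 5 without kidney 0 h replicate 3. With the replicate block 55 were called higher in gill than in kidney at 24 h, beside 15.1% of all tested. Whether the replicate numbers pair the libraries is not known. Called as higher in gill at 24 h than at 0 h were 12 with a pseudocount of 0.1, beside 0.157% of all tested. There were 18 with the gill groups alone, beside 0.199%, and 36 with the replicate block, beside 0.228%. Without single libraries there were 18 to 50, while the share of all tested ran from 0.0925% to 1.23%, against 0.415% in the main fit. The 18 came without gill 0 h replicate 3 and without gill 24 h replicate 1. A gill change above the kidney change was called in 0 with a pseudocount of 0.1, 8 with quantile normalization and 1 with the replicate block. The shares of all tested were 0%, 0.0264% and 0.00264%. Without single libraries it was called in 0 to 12, beside 0% to 0.0634%. The mean of the 3 left-out medians was 0.98 in gill and 0.05 in kidney, and 0.70 and 0.26 with a pseudocount of 0.1. The cause of these shifts was not tested. Summing per Trinity gene was not run, since each gene has 1 transcript per end number; summing per component, chosen after seeing the data, gave 67.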
